A study of Sus scrofa with 20 samples.

Results

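Acute phase proteins and the heavy chains of the inter-alpha-trypsin inhibitors were examined in backfat and liver of Nanchukmacdon pigs, a Korean breed. From 10 gene symbols, HP, ITIH1, ITIH2, ITIH3, ITIH4, ITIH5, CRP, ORM1, LBP and PTX3, 8 could be matched by symbol to a pig Ensembl gene among the 31907 genes of the count table, and HP (haptoglobin) and ORM1 (orosomucoid) were not analysed here. All 8 passed the filter on low counts that kept 16275 genes for testing. Poly(A) RNA of whole tissue from 5 boars yielded 5 backfat and 5 liver paired-end libraries. They are named below by tissue and by the number in their column name, which is taken as the number of the boar. The labels give every sample as WT, with a normal disease state and an age of 22 months, and the groups differ only in tissue. No challenge or treatment was part of the design, and whether an acute phase response was under way in any animal was not tested. The values are levels in bulk tissue, in which fewer cells of a type and less RNA per cell cannot be told apart. The 10 methylation libraries of the same study were not used here.

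The acute phase response is the change in plasma proteins that the liver makes after infection or injury, driven largely by interleukin 6 and interleukin 1. Inter-alpha-trypsin inhibitors are plasma proteins in which heavy chains are joined to bikunin, a protease inhibitor cut from the AMBP precursor, and the secreted protein TNFAIP6 moves heavy chains onto hyaluronan, a sugar polymer of the matrix around cells. ITIH4 carries no bikunin and is a major acute phase protein in pigs. CRP is a short pentraxin made by hepatocytes, PTX3 is a long pentraxin made by stromal and myeloid cells, and LBP binds bacterial lipopolysaccharide and hands it to CD14.

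The 10 libraries held 43820042 to 61772737 counts. The labelled tissues carried their own markers. The 9 hepatocyte markers together made up 1.23 to 5.39% of counts in liver and at most 0.00753% in backfat, whereas the 7 adipocyte markers made up 1.16 to 1.93% in backfat and at most 0.00203% in liver. A pair of libraries stood apart. In liver 67, 44.5% of counts fell on mitochondrially encoded protein genes, against 6.38 to 20.2% in the other livers, and its hepatocyte marker share of 1.23% was the lowest. Summed markers of red cells, skeletal muscle and neutrophils were also highest there among the livers, in CPM without TMM. Red cells had 1283 against 62.8 to 284, skeletal muscle 97.4 against at most 0.958, and neutrophils 17.1 against 1.53 to 4.76. Lymphocyte and stromal cell markers were highest there too. Macrophage (471 against up to 497), endothelial (79.4 against up to 102), mesothelium and adipocyte markers were not. In backfat 69 the hepatocyte markers lay between 0.0860 and 0.211% of their liver means with none at 0, and their median of 0.111% exceeded the medians of 0.000964 to 0.00398% in the other 4 backfat libraries.

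Backfat and liver were compared for every gene with edgeR's quasi-likelihood test, and a gene was called where the Benjamini-Hochberg adjusted p was at most 0.05 and the log2 fold change at least 2 in size. Levels are given in CPM, counts per 1000000 of the library after scaling by the trimmed mean of M-values (TMM), and negative fold changes mean a lower level in backfat. Of the 8 genes, 6 (ITIH1, ITIH2, ITIH3, ITIH4, CRP and LBP) were called higher in liver, a call made for 11.2% of all genes tested. The other 2, ITIH5 and PTX3, were called higher in backfat, as were 11.1% of all genes, and 22.3% of all genes were called in either direction. The values of the tissues did not overlap for any of the 8. This also held for genes that were not called, such as STAT3, and its share over all genes was not counted. The median log2 fold change of backfat over liver was -6.30 over the 8 genes and 0.00014 over all genes tested. With scaling by library size alone the median of all genes moved to 0.71 and the liver share of all calls fell from 50.1% to 31.8%, while the 8 genes kept their calls.

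**Figure D1:**
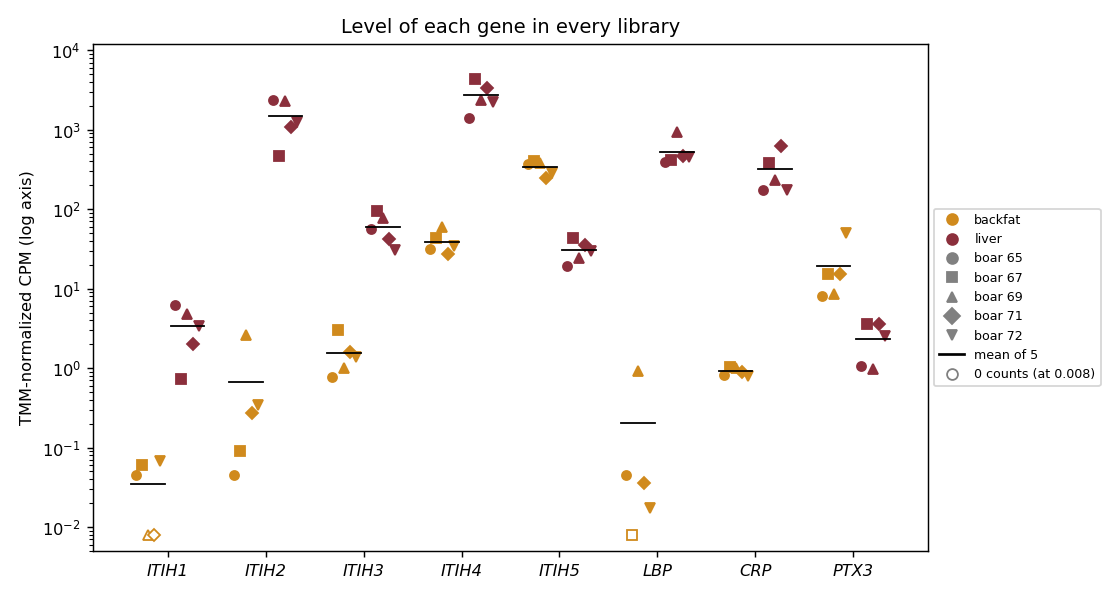
Level of each gene in TMM-normalized CPM (log axis) in the 5 backfat (orange) and 5 liver (dark red) libraries, with a marker shape for each boar and a black bar at the mean of 5; libraries with 0 counts are drawn open at the foot of the plot. For every gene drawn the points of one tissue lie wholly above those of the other, and ITIH5 and PTX3 are the only genes of the 8 with backfat above liver. Genes that were not called can also show no overlap, and the share of all genes that do was not counted.

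The heavy chain genes lie in a pair of clusters. In the RefSeq annotation of Sscrofa11.1, ITIH1 (chr13:34892335-34906378, plus strand), ITIH3 (chr13:34911104-34924881, plus strand) and ITIH4 (chr13:34928455-34948250, minus strand) follow each other on chromosome 13. ITIH2 (chr10:63635206-63672200, minus strand) and ITIH5 (chr10:63688416-63764566, plus strand) lie head to head on chromosome 10 with 16215 bases between their starts, and were called in opposite tissues. KIN, which ends 361 bases from the 3' end of ITIH2, had a log2 fold change of 0.04 (adjusted p = 0.818).

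The 250 bases before the annotated start of ITIH2, ITIH5 and ITIH4 are shown because these 3 genes made up most of the heavy chain counts and because the windows before ITIH2 and ITIH5 differ in base composition. Each is given 5' to 3' on the strand of its gene, as in the RefSeq genome of build Sscrofa11.1, with every CpG, the site of most DNA methylation, in capitals. The windows are chr10:63672201-63672450 for ITIH2, chr10:63688166-63688415 for ITIH5 and chr13:34948251-34948500 for ITIH4.
ITIH2: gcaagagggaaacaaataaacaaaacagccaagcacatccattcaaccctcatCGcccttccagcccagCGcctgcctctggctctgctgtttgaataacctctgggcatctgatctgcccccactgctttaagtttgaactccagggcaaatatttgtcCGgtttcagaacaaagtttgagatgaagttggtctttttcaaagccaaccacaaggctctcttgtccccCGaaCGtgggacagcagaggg
ITIH5: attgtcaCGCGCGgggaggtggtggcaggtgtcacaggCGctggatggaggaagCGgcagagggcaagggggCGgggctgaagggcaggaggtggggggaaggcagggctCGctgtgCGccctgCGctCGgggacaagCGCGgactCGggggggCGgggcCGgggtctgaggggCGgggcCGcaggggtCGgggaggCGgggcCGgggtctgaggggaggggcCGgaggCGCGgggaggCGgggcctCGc
ITIH4: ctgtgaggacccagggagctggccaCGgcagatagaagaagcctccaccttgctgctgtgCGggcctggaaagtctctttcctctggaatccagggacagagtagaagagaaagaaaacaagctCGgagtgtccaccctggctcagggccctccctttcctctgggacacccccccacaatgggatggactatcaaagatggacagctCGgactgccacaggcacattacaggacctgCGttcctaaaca

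The ITIH5 window held 25 CpG sites and 78.0% G and C, more CpG sites than 80.5% of the 19556 pig promoter windows of the same length. The ITIH2 and ITIH4 windows each held 5 CpG sites, more than 25.7% of the windows, and that of ITIH4 was 56.8% G and C. The median window held 12 CpG sites and 57.6% G and C. Fewer were found before ITIH1 and CRP, with 1 CpG site in each window, whereas ITIH3 had 10, LBP 9 and PTX3 4. Methylation of these sites was not analysed here.

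Letters known from acute phase promoters were searched on both strands from 250 bases before to 50 bases after each start: CTGGGAA of the interleukin 6 response element, TTCNNNGAA of STAT factors, TTGCNNAA of C/EBP factors and the NF-kappaB motif. CTGGGAA was present in 14.7% of all windows, TTCNNNGAA in 7.12%, TTGCNNAA in 9.46% and the NF-kappaB motif in 1.9%. ITIH3 held 2 matches, both to CTGGGAA on the strand opposite the gene, which read as TTCCCAG in the window printed here, and LBP held 1 match to CTGGGAA after its start. PTX3 held 1 match, to TTGCNNAA on the strand opposite the gene, which reads as TTGTGCAA in the window printed here. None of these exact letters occurred in the windows of ITIH1, ITIH2, ITIH4, ITIH5 or either RefSeq gene named CRP. Other letters that the same factors can bind were not searched, so sites of these factors may be present in any window. The ITIH3 and PTX3 windows (chr13:34910854-34911103 and chr13:97273344-97273593, both plus strand) are given with the matches in capitals because they held the matches upstream of a start.
ITIH3: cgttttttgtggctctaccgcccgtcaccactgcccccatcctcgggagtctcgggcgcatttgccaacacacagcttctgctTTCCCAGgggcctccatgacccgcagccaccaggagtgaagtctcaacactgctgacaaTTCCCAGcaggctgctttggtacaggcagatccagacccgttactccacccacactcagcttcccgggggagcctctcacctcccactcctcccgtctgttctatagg
PTX3: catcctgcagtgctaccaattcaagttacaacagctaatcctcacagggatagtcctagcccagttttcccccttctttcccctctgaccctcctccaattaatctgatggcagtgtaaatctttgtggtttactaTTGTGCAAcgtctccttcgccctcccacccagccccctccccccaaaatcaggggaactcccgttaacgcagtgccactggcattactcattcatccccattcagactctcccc

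Among the heavy chains joined to bikunin, ITIH2 (ENSSSCG00000011128) had the highest liver level per kilobase of exon. Its level was 2396, 470, 2324, 1098 and 1262 CPM in liver 65, 67, 69, 71 and 72 and 0.0451, 0.0915, 2.57, 0.270 and 0.343 CPM in the backfat libraries of the same boars. Liver 67 was the lowest liver library and backfat 69 the highest backfat library. The log2 fold change of backfat over liver was -11.16 (SE 1.27, adjusted p = 1.06e-05), and it was -13.01 without backfat 69. In that library ITIH2 stood at 0.170% of its liver mean, within the range of the hepatocyte markers there, against 0.00299 to 0.0227% in the other backfat libraries. The part of liver-type RNA in the ITIH2 level of backfat 69 was not tested.

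ITIH3 (ENSSSCG00000011451), another bikunin-linked heavy chain, held a larger share of its liver level in backfat than ITIH2 did. It stood at 56.7, 94.5, 77.1, 41.7 and 30.6 CPM in the livers and at 0.778, 3.05, 0.992, 1.59 and 1.39 CPM in backfat, in the order of boars above. Liver 67, the lowest for ITIH2, was the highest for ITIH3. Backfat was lower by a log2 fold change of -5.27 (SE 0.45, adjusted p = 8.41e-07). Backfat reached 1.29 to 5.07% of the liver mean.

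ITIH1 (ENSSSCG00000011450), which with ITIH2 forms inter-alpha-trypsin inhibitor itself, had the lowest level per kilobase of the 8 genes in both tissues. The livers held 6.18, 0.729, 4.80, 1.99 and 3.39 CPM, with liver 67 again lowest. The backfat libraries of boars 65, 67 and 72 had 4 counts each, or 0.0451, 0.0610 and 0.0686 CPM, and those of boars 69 and 71 had 0. The log2 fold change was -6.48 (SE 0.81, adjusted p = 2.37e-05), a value that rests on those few backfat counts. ITIH1 lies wholly inside NEK4, a kinase gene on the opposite strand, and the exons of both genes share 382 bases, 12.9% of the ITIH1 exon bases. NEK4 had 74.9 ± 27.1 CPM in liver and 36.7 ± 7.37 CPM in backfat (SD, n = 5). Reads were counted without strand, so reads of the shared bases cannot be assigned to ITIH1.

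ITIH4 (ENSSSCG00000011453) was called higher in liver and was well above 0 in backfat. Its level was 1403, 4342, 2349, 3346 and 2220 CPM in the livers, a mean of 2732 ± 1134 (SD, n = 5), and it took 0.128 to 0.313% of all liver counts. In backfat it stood at 31.9, 43.1, 59.0, 27.0 and 34.8 CPM, a mean of 39.2 ± 12.6. Every backfat library thus held a well-counted ITIH4 level, with 1496 to 3509 counts, and none came near the liver range. Its tissues differed by a log2 fold change of -6.12 (SE 0.45, adjusted p = 2.6e-07). ITIH4 shares 425 exon bases, 8.80% of its own, with LOC100153598 on the same strand. LOC100153598 could not be matched to a gene of the count table, and the part of its reads in the ITIH4 level was not tested.

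Set against its liver mean, the ITIH4 level in backfat was higher than that of most hepatocyte markers. It was 1.17, 1.58, 2.16, 0.987 and 1.27% of the liver mean in backfat 65, 67, 69, 71 and 72. In 4 of 5 backfat libraries this was above all 9 hepatocyte markers, and in backfat 65 it was above 8 of 9, below ARG1, an enzyme of the urea cycle, at 1.41%. ITIH3 had the same counts of markers below it. CRP, at 0.255 to 0.323%, was above all 9 markers in 3 of 5 libraries, whereas ITIH2 and LBP were above all 9 in none.

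**Figure D2:**
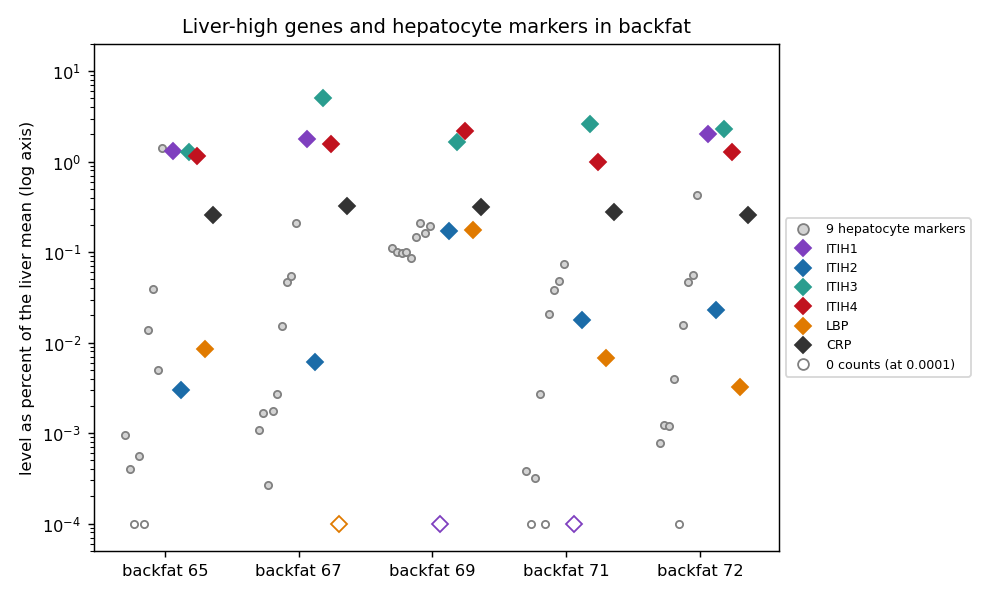
Level in each of the 5 backfat libraries as a percentage of the mean of the 5 livers (log axis), for the 6 genes called higher in liver (coloured diamonds) and 9 hepatocyte markers (grey circles, spread sideways); values of 0 are drawn open at the foot. CRP keeps a similar height in all libraries, ITIH3 is highest in backfat 67, and ITIH2, ITIH4, LBP and most markers are highest in backfat 69.

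ITIH5 (ENSSSCG00000011129), a heavy chain known to be made in adipose tissue, was reversed. It stood at 373, 399, 376, 247 and 284 CPM in backfat, a mean of 336 ± 66.2 (SD, n = 5), and at 19.2, 43.1, 24.5, 35.9 and 29.9 CPM in liver, a mean of 30.5 ± 9.36. The lowest backfat library thus exceeded the highest liver library, liver 67. ITIH5 had a log2 fold change of 3.46 (SE 0.26, adjusted p = 3.36e-07). Its log2 levels spread about as much among animals as those of the middle gene, with an SD above that of 55.7% of genes in backfat and 57.0% in liver.

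Within each library the heavy chains were set against each other per kilobase of exon. In backfat, ITIH5 made up 89.6 ± 2.36% of the summed level per kilobase and ITIH4 9.71 ± 1.91% (SD, n = 5). In liver the sum was shared between ITIH2, with 53.3 ± 23.2%, and ITIH4, with 45.4 ± 22.8%, and ITIH5 made up 0.543 ± 0.226%. With RefSeq exon lengths in place of those of the count table, a choice made after seeing the data, ITIH2 made up 45.3 ± 22.4% and ITIH4 52.2 ± 21.9%, so which of these is larger depends on the length used. The liver sum itself differed little between animals, between 694 and 1044 CPM per kilobase, while its makeup differed widely. ITIH4 made up 19.9% in liver 65, 78.2% in liver 67, 30.0% in liver 69, 56.1% in liver 71 and 42.6% in liver 72. The ratio of ITIH4 to ITIH2 counts, which no scaling between libraries can change, was 0.586, 9.24, 1.01, 3.05 and 1.76 in the same order, a 15.8-fold range that was 5.20-fold without liver 67. The mitochondrial share of counts, 6.97, 44.5, 6.38, 20.2 and 11.9%, was highest in the same pair of livers as the ratio, liver 67 and liver 71, and its part in the ratio was not tested.

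**Figure D3:**
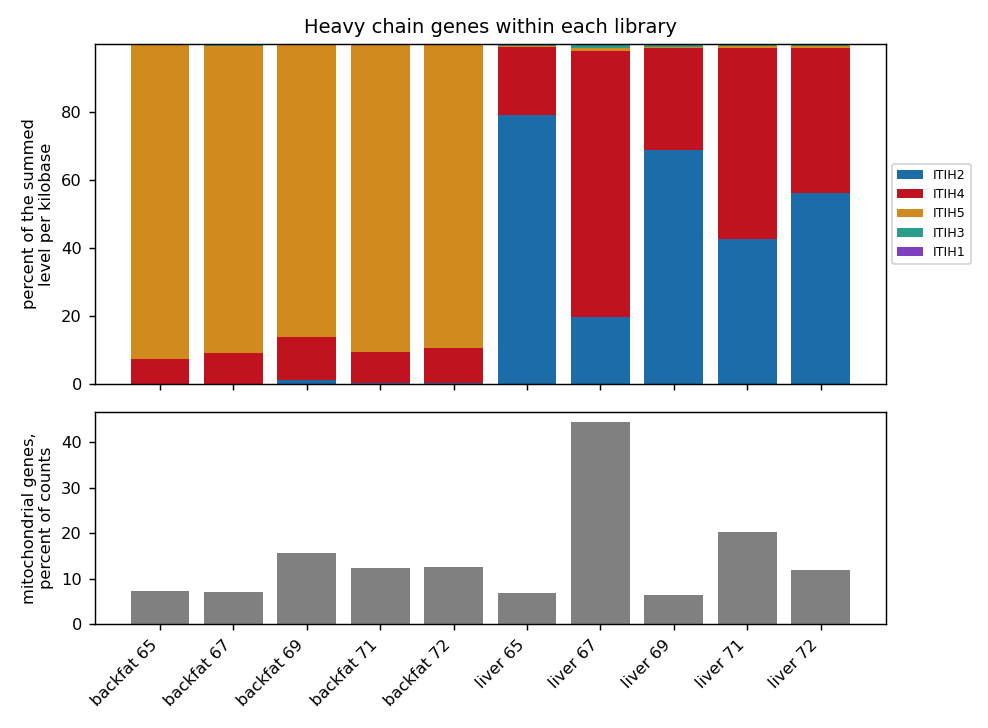
Upper panel, share of each heavy chain gene in the summed level per kilobase of exon (percent) in each of the 10 libraries; lower panel, share of counts from mitochondrial protein-coding genes (percent). ITIH5 fills most of every backfat bar, and the liver bars divide between ITIH2 and ITIH4, with ITIH4 at 78.2% in liver 67.

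CRP (ENSSSCG00000006403) was called higher in liver and held a steady low level in backfat. The livers held 172, 385, 230, 621 and 176 CPM and the backfat libraries 0.812, 1.02, 1.01, 0.883 and 0.806 CPM. Liver 71 was the highest liver library, and the backfat values lay within 1.27-fold of each other. CRP had a log2 fold change of -8.45 (SE 0.46, adjusted p = 2.82e-08). RefSeq holds a pair of genes named CRP side by side on chromosome 4 (chr4:90782741-90785051 and chr4:90793361-90801020), and which of them the Ensembl gene counts cannot be told from the files, so the value is that of the locus as counted.

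LBP (ENSSSCG00000028758, chr17:41398935-41429467) was near 0 in backfat. It stood at 393, 411, 942, 462 and 452 CPM in liver, where liver 69 was far above 4 similar libraries. Backfat 65, 67, 69, 71 and 72 held 4, 0, 55, 2 and 1 counts, or 0.0451, 0, 0.925, 0.0360 and 0.0172 CPM. The log2 fold change was -11.36 (SE 1.18, adjusted p = 4.93e-06) and was -14.20 without backfat 69, where LBP was at 0.174% of its liver mean, again within the range of the hepatocyte markers. The ratio of CRP to LBP counts in liver was 0.438, 0.936, 0.244, 1.34 and 0.389, a 5.51-fold range. Per kilobase, with the exon lengths of the count table, LBP was above CRP in 5 of 5 livers. That length is 9774 bases for CRP, against 2067 and 1727 for the RefSeq genes named CRP. For LBP it is 2367 bases, against 1732 in RefSeq, so this order rests on the length used.

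PTX3 (ENSSSCG00000011727, chr13:97273594-97279570) was higher in backfat and varied widely there. Its level was 7.99, 15.1, 8.68, 15.1 and 50.8 CPM in backfat, a mean of 19.6 ± 17.8 (SD, n = 5), and 1.05, 3.62, 0.977, 3.57 and 2.52 CPM in liver. Backfat 72 stood apart from the other 4, and every backfat library exceeded every liver library. The log2 fold change was 3.06 (SE 0.58, adjusted p = 0.000704) and 2.33 without backfat 72, still past both thresholds. The SD of its log2 level in backfat was above that of 98.7% of genes. In backfat 72 the neutrophil markers were also highest, at a summed 18.1 CPM without TMM against 7.03 to 17.4 CPM in the other backfat libraries. The sum of 17.4 was that of backfat 69, where PTX3 was at 8.68 CPM. The red cell markers were highest in backfat 72 too, at 577 against 133 to 463 CPM. The macrophage markers were not, at 364 against 244 to 519 CPM. The stromal cell markers made up 8.07% of counts in backfat 72 and 4.51 to 7.02% in the other backfat libraries, and the part of these cells in the PTX3 level was not tested.

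Levels per kilobase placed the genes in a different order in each tissue. In liver the means fell from ITIH2 (467 CPM per kilobase) through ITIH4 (364), LBP (225), CRP (32.4), ITIH3 (5.97), ITIH5 (4.35) and PTX3 (1.24) to ITIH1 (0.551). The ranges of ITIH2 and ITIH4, of ITIH4 and LBP, of ITIH3 and ITIH5, and of PTX3 and ITIH1 overlapped, and those of the other neighbours did not. In backfat the order was ITIH5 (47.9), PTX3 (10.4), ITIH4 (5.22), ITIH2 (0.206), ITIH3 (0.155), CRP (0.0928), LBP (0.0865) and ITIH1 (0.00563). The backfat order rests in part on backfat 69: without it the means of ITIH2 and LBP were 0.0580 and 0.0104, below ITIH3 (0.169) and CRP (0.0901), and ITIH2 was above ITIH3 in 1 of 5 libraries. With all 5, the only neighbours whose ranges did not overlap were ITIH5 and PTX3, and ITIH4 and ITIH2. Exon lengths of the count table, such as 6209 bases for ITIH1 and 10072 for ITIH3, exceed the RefSeq exon bases of 2961 and 3133. For CRP the length is 9774 bases, against 2067 and 1727 for the RefSeq genes of that name. The order depends on these lengths: with RefSeq lengths ITIH4 (566) was above ITIH2 (503) in liver. In backfat ITIH3 (0.498) was above ITIH2 (0.221) with RefSeq lengths and all 5 libraries. The place of CRP in either order was not computed with RefSeq lengths.

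The livers did not rank in the same order for all genes. Liver 67, the library with the raised red cell, muscle and neutrophil markers, was the highest liver library for 4 of 8 genes (ITIH3, ITIH4, ITIH5 and PTX3) and the lowest for 2 (ITIH1 and ITIH2). The part of those cells in these levels was not tested. Liver 65 was the highest for ITIH1 and ITIH2 and the lowest for 4 (ITIH4, ITIH5, CRP and LBP). In CPM without TMM liver 65 was the lowest for 2 (ITIH4 and ITIH5), and the lowest was liver 72 for CRP and liver 67 for LBP. The highest liver exceeded the lowest by 8.48-fold for ITIH1, 5.10-fold for ITIH2, 3.70-fold for PTX3, 3.61-fold for CRP, 3.09-fold for ITIH3 and ITIH4, 2.40-fold for LBP and 2.24-fold for ITIH5. The SD of the log2 level in liver was above that of 94.5% of genes for ITIH1, 94.3% for ITIH2 and 89.1% for CRP, where the median SD of 13308 genes was 0.404.

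**Figure D4:**
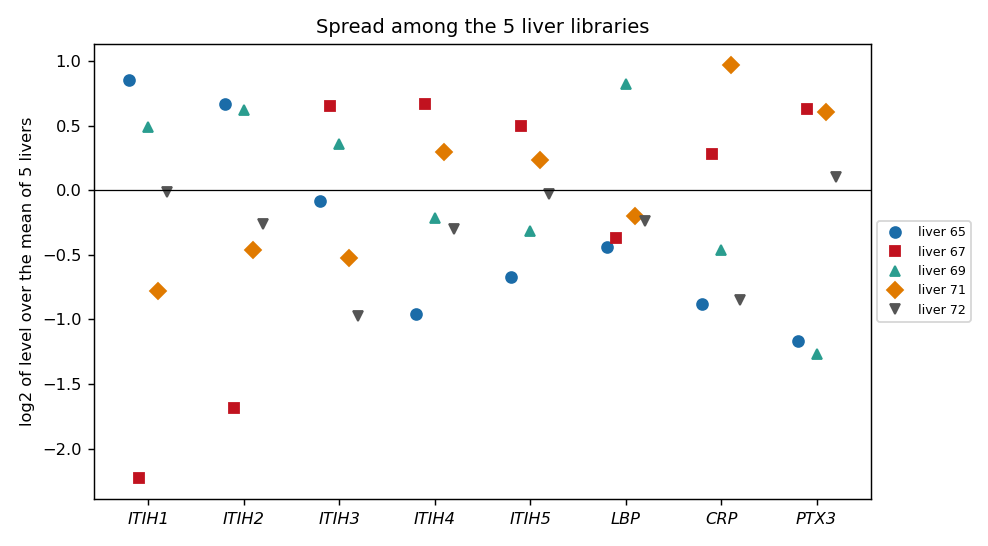
Log2 of the level of each gene in the 5 liver libraries over its mean of 5 livers (0 is the mean), with a colour and shape for each library. Liver 67 (red squares) lies lowest for ITIH1 and ITIH2 and highest for ITIH3, ITIH4, ITIH5 and PTX3.

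Other acute phase proteins went mostly with liver, where 11.2% of all genes tested were called, against 11.1% called higher in backfat. Of 19 further positive acute phase proteins, 11 had an identifier and were tested: 10 were called higher in liver and 1 higher in backfat, and the median log2 fold change was -10.56. The largest were MBL2, a lectin of the complement system, with 369 ± 479 CPM in liver and 0.0572 ± 0.128 CPM in backfat, where all its 17 counts came from backfat 69 (log2 fold change -12.68, SE 1.38, adjusted p = 7.3e-06), and APCS, serum amyloid P (-11.70, SE 0.82, adjusted p = 1.7e-07). Liver 71 held 1221 CPM of MBL2 and the other livers 156 ± 58.5 (SD, n = 4), and the MBL2 value was -11.49 without liver 71. APCS had -12.45 without backfat 69. LCN2, an iron-carrier binding protein of neutrophils and fat, was the exception, with 13.1 ± 4.57 CPM in backfat and 1.74 ± 1.06 CPM in liver (2.91, SE 0.46, adjusted p = 0.000179). All 6 negative acute phase proteins, whose plasma levels fall in inflammation, were also higher in liver, with a median of -11.27, led by TTR (-12.15, SE 1.76, adjusted p = 7.97e-05) and ALB (-12.10, SE 2.17, adjusted p = 0.000446). Most of the backfat level of TTR and ALB came from backfat 69, with 6.11 CPM of TTR against at most 0.240 and 36.4 CPM of ALB against at most 0.351. Without that library their log2 fold changes were -15.47 and -16.89. SAA3 and 7 other positive acute phase genes had no identifier and were not analysed here.

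The light chain and the hyaluronan partners of the heavy chains divided between the tissues. Of 17 genes, 13 were tested, of which 3 were called higher in liver, 5 higher in backfat and 5 in neither, with a median log2 fold change of 0.79. AMBP, the precursor of bikunin, held 10955 ± 4357 CPM in liver and 0.0451, 0.0305, 12.5, 0.162 and 0.257 CPM in the backfat libraries, with backfat 69 again the highest (-12.05, SE 2.01, adjusted p = 0.000251, and -16.46 without backfat 69). TNFAIP6, the heavy chain transferase, held 23.5, 46.2, 28.2, 39.1 and 60.6 CPM in backfat and 0.106 to 0.432 CPM in liver (7.24, SE 0.41, adjusted p = 3.18e-08). AMBP was thus high in the tissue where TNFAIP6 was near 0, and the reverse.

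The hyaluronan synthases HAS2 and HAS1 were also higher in backfat. HAS2 held 5.23, 11.1, 12.1, 8.34 and 34.3 CPM in backfat and at most 0.253 CPM in liver (6.72, SE 0.61, adjusted p = 1.52e-06). HAS1 held 0.744, 1.24, 0.404, 0.829 and 5.97 CPM in backfat and at most 0.126 CPM in liver (4.80, SE 0.91, adjusted p = 0.000688). Backfat 72, which was highest for PTX3, was also highest for TNFAIP6, HAS1 and HAS2, and without it the values of HAS1 and HAS2 were 3.62 and 6.09. CEMIP, which degrades hyaluronan, was low in both tissues and higher in liver (-2.96, SE 0.60, adjusted p = 0.00112). HAS3 had 0 counts in all libraries, and CD44, a hyaluronan receptor, had a log2 fold change of -0.23 (adjusted p = 0.357). The remaining calls, named after their values were seen, were VCAN (4.04) and HAPLN1 (2.28), a matrix proteoglycan and a link protein, in backfat, and HAPLN3 (-2.06), another link protein, in liver. HAPLN1 lost its call without liver 71, at 1.95. HAPLN3 lost its call with the boar as a block, at -1.95 (adjusted p = 0.000715), with library size alone, at -1.37, with limma-voom, at -1.94, without backfat 69, at -1.93, and without liver 65, at -1.92.

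The genes that carry the acute phase signal differed less. Of 26, 22 were tested: 1 was called higher in liver, none higher in backfat, 9 (40.9%, against 32.7% of all genes) passed the adjusted p alone, and the median log2 fold change was 0.17. Among all genes tested, 22.3% were called in either direction. IL6R, the interleukin 6 receptor, was called in liver, with 74.6 ± 19.4 CPM in liver and 17.9 ± 4.29 CPM in backfat (-2.06, SE 0.23, adjusted p = 8.19e-06). At an unadjusted p under 0.05 edgeR had 8 signal genes higher in backfat and 4 the other way. The share of all genes at that threshold was not counted, so no lean of the list is read from these counts. At the thresholds for a call DESeq2, like edgeR, had 0 in backfat. LIF, a cytokine of the interleukin 6 family, held 2.32 ± 0.833 CPM in backfat and 0.601 ± 0.466 CPM in liver (1.94, SE 0.48, adjusted p = 0.00456) and was called with the boar as a block, at 2.15 (adjusted p = 0.00468). The IL6R value lies at the threshold and was -1.31 with scaling by library size alone. Its partner IL6ST had a log2 fold change of 0.01 (adjusted p = 0.959), STAT3 of -0.82 (adjusted p = 0.00236) and SOCS3, the feedback inhibitor, of -0.09 (adjusted p = 0.87). Of the C/EBP factors, CEBPA had 1.36 (adjusted p = 0.0195), CEBPB -0.41 (adjusted p = 0.391) and CEBPD -0.60 (adjusted p = 0.193).

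Of 8 receptors and partners of LBP and haptoglobin, 7 were tested, with 1 called in each tissue and a median log2 fold change of -0.01. All genes tested had 11.2% called higher in liver and 11.1% higher in backfat. Counts of 1 in so short a list cannot be told from these shares. CD14, the partner of LBP, was higher in liver, with 697, 397, 629, 1063 and 987 CPM against 21.8, 25.7, 40.3, 27.5 and 33.0 CPM in backfat (-4.67, SE 0.34, adjusted p = 2.2e-07). BPI, a lipopolysaccharide-binding relative of LBP, was higher in backfat at a low level (3.20, SE 0.59, adjusted p = 0.000564), and had 4.18 without liver 67. LY96 (1.40, adjusted p = 0.0103), TLR4 (0.73, adjusted p = 0.0197) and CD163, the haptoglobin scavenger receptor (-1.37, adjusted p = 0.00198), passed the adjusted p alone, and LRP1 was not analysed here. Of 5 other pentraxins, APCS was called in liver and NPTX1, a neuronal pentraxin, in backfat (3.58, SE 0.52, adjusted p = 8.59e-05), and 3 were not called.

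**Figure D5:**
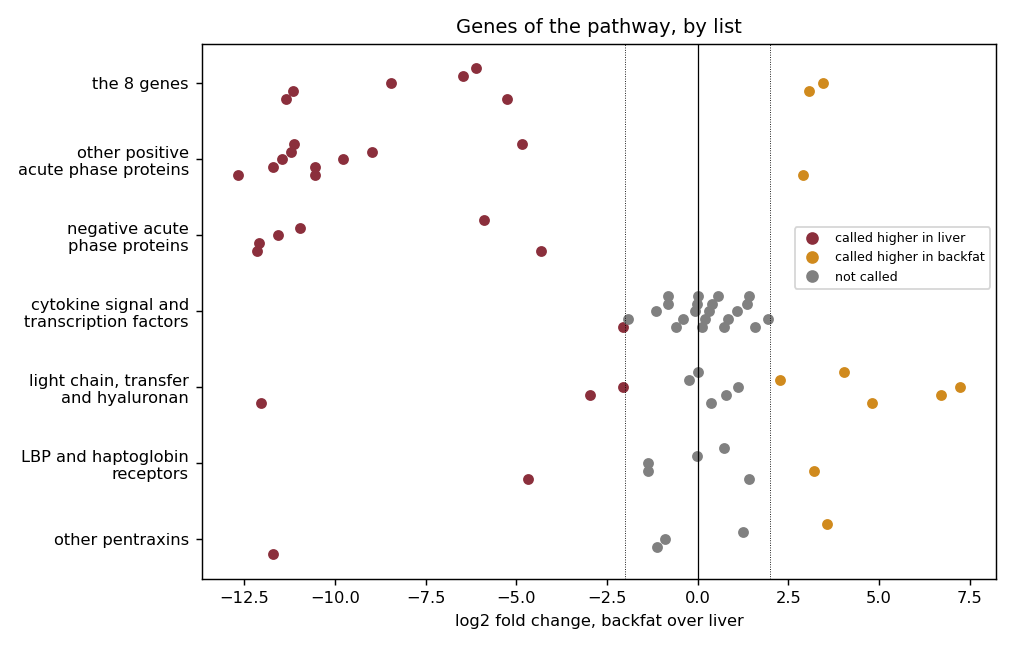
Log2 fold change of backfat over liver for the 8 genes and 6 lists of related genes, with 1 point for each gene tested, spread up and down only for visibility; dark red points were called higher in liver, orange points higher in backfat, and dotted lines mark a size of 2. Acute phase proteins lie far to the left, signal genes near 0, and the hyaluronan list on both sides.

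Genes with the most similar profile were sought by the root mean square difference of centred log2 CPM over the 10 libraries, a description with no test. Nearest to ITIH4 were ENTPD8 (0.380), INHBA (0.415) and ARHGEF16 (0.451), all 3 higher in liver. Nearest to ITIH5 were ACE (0.160), SH3RF2 (0.218) and CACHD1 (0.255), all 3 higher in backfat.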

How the data were processed

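RNA-seq of 5 backfat and 5 liver samples was used. The authors aligned reads with HISAT2 to Sscrofa11.1 and deposited raw counts per gene from featureCounts 2.0.1 (Ensembl release 99, no strand). Symbols came from a gene name table, and neighbours and promoter windows from RefSeq. Counts were scaled by TMM over all 10 libraries (CPM), filtered by filterByExpr and tested with edgeR 4.0.16 by tissue, with Benjamini-Hochberg adjustment over 16275 genes. The SE is the log2 fold change over the root of the F statistic. Log2 levels used a pseudocount of 0.5. The members, lists and the rule for named genes (all members, fixed partners and the 2 largest calls per list and direction) were chosen with earlier results of these data known. The 5 samples of a tissue come from separate boars. Column names carry a number after the tissue, which they do not explain and which is taken here as the boar number. Libraries were paired by these numbers alone. Deviations from the tissue means of the same boar correlated at 0.0359 to 0.226. For boars 67 and 69 the liver that correlated best with the backfat library carried another boar number. In simulated counts of this comparison (16017 genes), edgeR recovered 193 of the 200 changed genes (log2 size 3) and called 2 unchanged genes. A protein comparison was planned and not run, and 1 gene and 1 motif are not reported here. Alternatives, run in R 4.3.3 with DESeq2 1.42.0 and limma 3.58.1, were other normalizations, tests and filters, the boar as a block, and libraries left out.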

Additional observations from a re-analysis of the deposited data

Results flagged for a closer look

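Dixon's criterion flags a library whose gap to its nearest neighbour takes more than 0.71 of the whole range. It flagged 4 of the 16 groups of 5 libraries tested. Chance gives about 1 group in 20 for normal, independent values. The values here were CPM, some near 0, and backfat 69 was flagged for more than 1 gene, so the 4 cannot be set against that rate. ITIH2 stood at 2.57 CPM in backfat 69, against at most 0.343 CPM in the other backfat libraries. LBP stood at 0.925 CPM in backfat 69, the library with the highest hepatocyte markers, against at most 0.0451 CPM. LBP also stood at 942 CPM in liver 69, against 393 to 462 CPM in the other livers. PTX3 stood at 50.8 CPM in backfat 72, against 7.99 to 15.1 CPM.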

How the results depend on the processing

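Under 19 alternatives the 8 genes gave 149 log2 fold changes, and all 149 kept the direction and the call. ITIH2 ranged from -13.26 to -10.58, LBP from -14.28 to -10.72, ITIH4 from -6.31 to -5.36, ITIH5 from 3.35 to 4.23 and PTX3 from 2.33 to 3.81. With the boar as a block, 1757 genes were called higher in liver and 1913 in backfat, and the block changed no call of the 8 genes. Requiring at least 10 counts in every library left ITIH1, ITIH2 and LBP untested, and the calls over all genes fell to 1852. Liver calls fell to 3 of the 8 genes, and to 4 positive and 3 negative acute phase proteins. ITIH5 and PTX3 kept their backfat calls. The calls also fell to 1 hyaluronan gene in each tissue, 0 LBP and haptoglobin receptors in backfat, and 0 pentraxins in either tissue. Among signal genes, liver calls were 0 with library size alone and 0 without a filter, 2 without both backfat 69 and liver 67, and 0 to 2 with each library left out. IL6R was lost without backfat 69, backfat 71 or liver 71, and IL1R1 was gained without liver 67 in both such settings. Backfat calls of signal genes were 4 with library size alone and 1 each (LIF) with limma-voom, without a filter, with the boar as a block and without both backfat 69 and liver 67, and 0 to 1 with each library left out. Library size alone gave 2 receptors in backfat. RefSeq exon lengths, added after seeing the data, changed the order of ITIH2 and ITIH4 shares in liver and of ITIH2 and ITIH3 shares in backfat. The causes were not tested. Counts near 0 in backfat limit ITIH1, ITIH2 and LBP.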
